A study of Mus musculus with 4 samples.

Results

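The cation chloride cotransporters carry chloride across the cell membrane together with sodium, potassium or both, and the WNK kinases control them. The 9 genes described here are 5 cotransporters (*Slc12a1*, *Slc12a2*, *Slc12a3*, *Slc12a4* and *Slc12a7*), the kinases *Wnk1*, *Wnk4* and *Stk39*, and the ubiquitin ligase adaptor *Klhl3*. They were chosen by gene symbol among the 31053 genes of the count tables, and all 9 were found. Their RNA was counted by single-nucleus RNA-seq in kidneys of 4 male mice aged 12 weeks, with 1 library per mouse. The 2 control mice were Cre-,Tfap2aFlox/Flox and the 2 knockout mice Cre+,Tfap2aFlox/Flox, so the floxed *Tfap2a* allele was shared by all 4 and the groups differed in the *Hoxb7Cre* transgene. *Hoxb7Cre* recombines in the collecting duct and the lower urinary tract. The thick ascending limb (TAL) and the distal convoluted tubule (DCT), in which most of these genes are best known, are not among those structures. Tissue was taken from a middle slice of the kidney with part of the cortex trimmed away.

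In the nephron, *Slc12a1* encodes NKCC2, the target of loop diuretics, which takes up sodium, potassium and chloride from the urine of the TAL. *Slc12a3* encodes NCC, the target of thiazides, which takes up sodium and chloride in the DCT. WNK1 and WNK4 phosphorylate SPAK, the product of *Stk39*, and SPAK in turn phosphorylates the cotransporters, which activates NKCC2, NKCC1 and NCC and inhibits the potassium chloride cotransporters. KLHL3 brings WNK kinases to a CUL3 ubiquitin ligase for degradation. In humans, variants in WNK1, WNK4, KLHL3 and CUL3 cause familial hyperkalemic hypertension, and loss of NKCC2 and of NCC causes Bartter and Gitelman syndromes.

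Each RNA molecule is marked by a unique molecular identifier (UMI) before amplification, so UMIs count molecules. The libraries held 22179410 to 44964099 UMIs, and 5430 to 7997 nuclei per mouse were kept, 27341 in all, with medians of 2505 to 2797 UMIs per nucleus. Clusters were named from marker genes that did not include the 9 genes, which were also left out of the genes used for clustering. In 12 classes there were 26079 nuclei: 13806 of the proximal tubule (PT), 5194 TAL, 1685 endothelial, 1465 collecting duct principal cells (CD-PCs), 1085 thin limb, 768 DCT, 742 connecting tubule (CNT), 657 collecting duct intercalated cells (CD-ICs), 238 interstitial, 220 deep medullary epithelium of the pelvis (DMEP), 112 podocytes and 107 immune cells. The defining markers were present: *Umod* was found in 99.4% of TAL nuclei, *Trpm6* in 96.1% of DCT nuclei and *Aqp2* in 90.2% of CD-PC nuclei. DCT nuclei also carried the TAL markers *Egf* and *Umod*, at 7415 and 3152 UMIs per 1000000. The deleted exons 5 and 6 of *Tfap2a* are not what 3' counts read, so *Tfap2a* UMIs do not check the genotype. In CD-PCs they came to 55.2 and 95.6 per 1000000 in the controls and to 61.2 and 105 in the knockouts. Any library pair had 7 to 18 cell barcodes in common. Free RNA, estimated from genes of other segments, made up 12.9, 7.47, 16.3 and 4.36% of the UMIs of TAL nuclei (control mouse 1, control mouse 2, knockout mouse 1, knockout mouse 2), so it was lowest in knockout mouse 2.

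Levels are given as CPM, the UMIs of a gene per 1000000 UMIs of a class in a mouse, and 4 values in a row are those of control mice 1 and 2 and knockout mice 1 and 2. Because the kit reads the 3' end, levels are compared between classes and mice for 1 gene, not between genes. A low level can come from fewer cells of a type within a class or from less RNA per cell, which sums cannot tell apart, so UMIs per nucleus are given as well.

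The RefSeq transcript starts of these genes were set beside the motif of AP-2 factors, since *Tfap2a* encodes one. Coordinates are those of RefSeq on GRCm38.p6, the assembly of mm10: *Slc12a1* chr2:125152510-125230002, *Slc12a3* chr8:94329109-94366222, *Slc12a4* chr8:105943590-105966149, *Slc12a7* chr13:73733052-73816754, *Wnk1* chr6:119923969-120038695, *Wnk4* chr11:101260537-101277409, *Stk39* chr2:68210445-68472108, and *Klhl3* chr13:58000226-58123477. *Slc12a1* overlaps Gm46760 and Gm14002, *Stk39* overlaps LOC108168764, and *Klhl3* overlaps Mir874, Gm33389 and Gm52040, so that reads there may be shared. The motif searched was GCCNNNGGC, which is its own reverse complement, in the 250 bases before each start site. It was found in 4509 of 32851 RefSeq promoters (13.7%). Of the 8 members with an entry, *Slc12a3*, *Wnk1*, *Wnk4*, *Stk39* and *Slc12a7* had it, and *Slc12a1*, *Slc12a4* and *Klhl3* did not. Each window ends at a start site of that table, and those of *Slc12a7* (chr13:73763410-73763659 and chr13:73763447-73763696) and *Klhl3* (chr13:58113648-58113897) lie inside the gene spans above, away from their outer ends. Those of the other members with a window reach into the outer ends of their spans. A match is a description and not a site of binding. The promoter of *Wnk4* is shown because it held the motif 2 times (plus strand, chr11:101260317-101260566, 5' to 3', motif in capitals), and its last bases lie within the longest annotated span of the gene.
Wnk4: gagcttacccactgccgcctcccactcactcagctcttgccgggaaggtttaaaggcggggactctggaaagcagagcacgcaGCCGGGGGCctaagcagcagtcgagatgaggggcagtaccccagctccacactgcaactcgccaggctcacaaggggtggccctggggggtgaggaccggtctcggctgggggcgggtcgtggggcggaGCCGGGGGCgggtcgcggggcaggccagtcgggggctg

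*Slc12a1* was found mainly in the TAL, which held 94.9% of its UMIs (mean of 4 mice, 93.5 to 97.3%). Its level there was 18713, 20391, 16344 and 19197 CPM, a mean of 18661 ± 1698 (SD, n = 4). The next class by mean, podocytes, had 806 CPM, and all 4 mice had the TAL far above it, by 23.2 times on average. Every TAL nucleus of 3 mice carried the transcript, and in knockout mouse 2 it was found in 1351 of 1353. A TAL nucleus held a median of 36, 40, 30 and 37 UMIs of *Slc12a1*, which was 1.84, 2.02, 1.59 and 1.90% of all its UMIs. The range within a mouse was wider than that between mice: from 16 (5th percentile) to 73 (95th percentile) in control mouse 1.

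TAL nuclei fell into 3 clusters, called here by the TAL markers that set them apart: 3933 *Cldn10*-high nuclei, 705 *Enox1*-high *Tmem207*-low nuclei and 556 *Enox1*-high *Tmem207*-high nuclei. *Slc12a1* was 19304, 20959, 17214 and 20030 CPM in the *Cldn10*-high cluster. In the *Tmem207*-high cluster it was 15672, 17324, 13148 and 15298 CPM, lower in each mouse than in the *Cldn10*-high cluster, although the ranges over mice overlapped. The third cluster lay between the others in each mouse, with 18305, 19167, 15732 and 17903 CPM.

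Outside the TAL, *Slc12a1* was low. In PT nuclei, which do not make NKCC2, it was 84.9, 92.2, 65.1 and 39.8 CPM, with at least 1 UMI in 18.9, 19.7, 16.1 and 11.8% of nuclei. At an equal depth of 1000 UMIs per nucleus the shares were 7.66, 6.73, 6.38 and 4.34%, against 99.8 to 100% in the TAL. Median depths were 3190 UMIs in PT and 1960 in TAL nuclei. The free RNA itself held 1290, 1606, 1130 and 2220 CPM of *Slc12a1*. The other 10 classes had means of 130 to 806 CPM, and the part of free RNA in them was not tested.

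**Figure D1:**
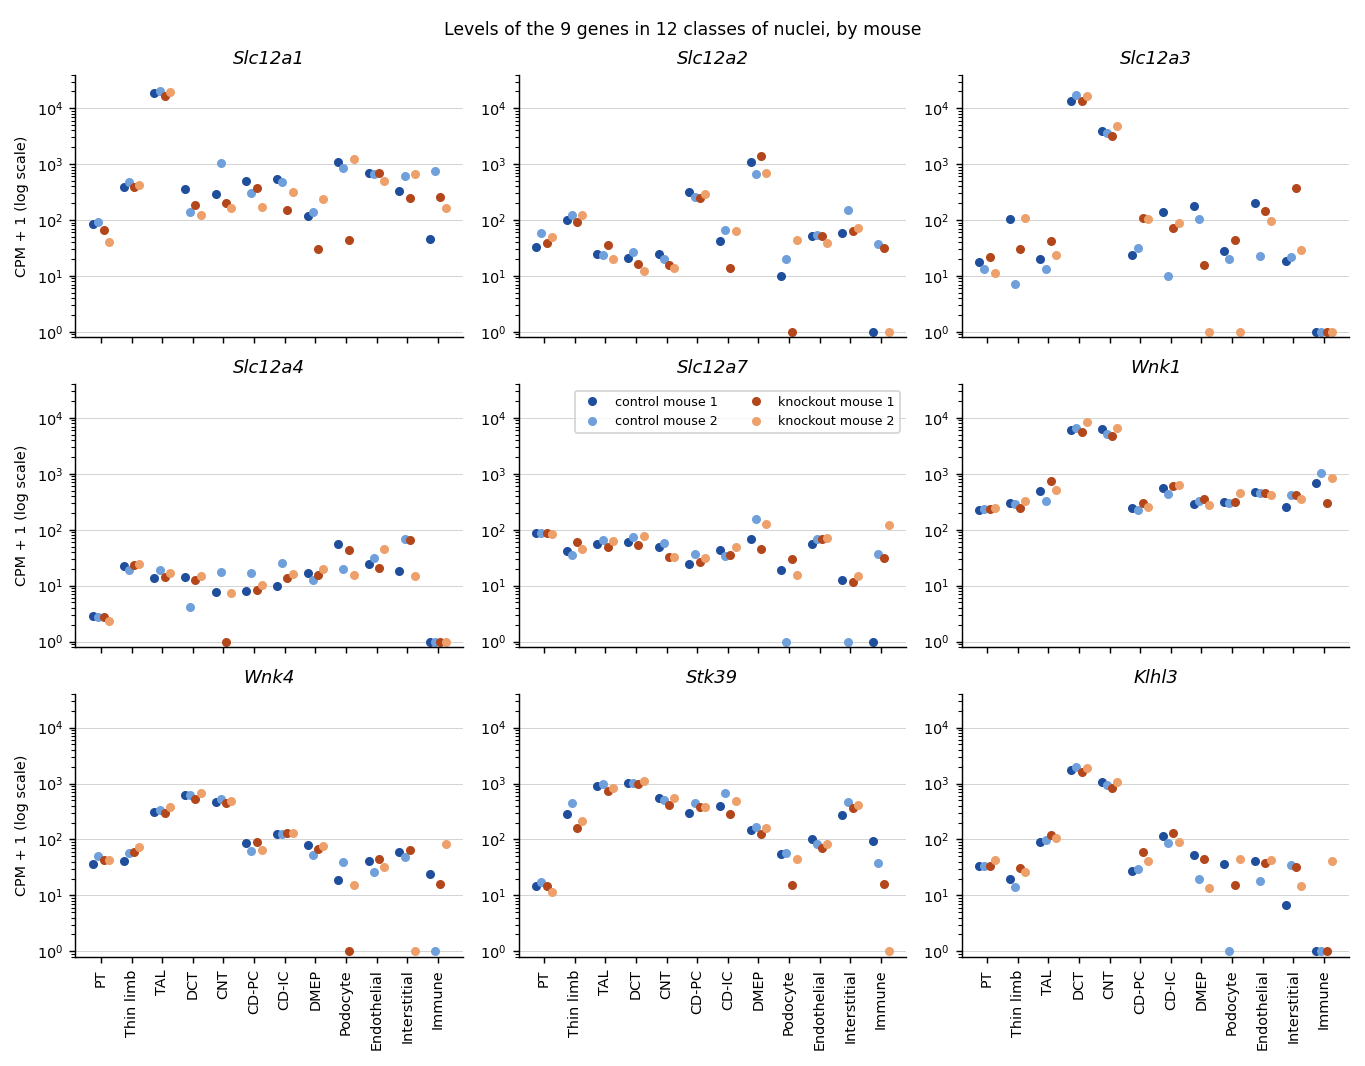
Levels of the 9 genes in 12 kidney cell classes, as CPM plus 1 on a log scale, with 1 point per mouse (2 control and 2 knockout mice). *Slc12a1* stands out in the TAL (16344 to 20391 CPM), *Slc12a3* in the DCT (13197 to 17020 CPM) and CNT, and *Slc12a2* in the DMEP, whereas *Slc12a4* and *Slc12a7* have classes that mostly overlap.

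*Slc12a3* was highest in the DCT, with 13452, 17020, 13197 and 16483 CPM, and a DCT nucleus held a median of 27, 37.5, 27 and 36 UMIs. All 768 DCT nuclei carried it. The DCT held 72.6% of its UMIs and the CNT 21.6%. In the CNT class the level was 3846, 3648, 3143 and 4875 CPM, below the DCT in each mouse and without overlap, by 3.88 times on average. The other 10 classes were far lower, with means of 0 to 114 CPM, and the free RNA held 216 to 394 CPM.

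The nuclei of the CNT class were not alike. When DCT and CNT nuclei were clustered again, 767 early DCT, 221 late DCT and 522 CNT nuclei were separated, again without the 9 genes. *Slc12a3* was 11835, 13073, 10431 and 13334 CPM in late DCT nuclei, of which 93.7% carried *Trpm6* and 99.6% *Calb1*. In the remaining CNT nuclei it was 760, 846, 359 and 1252 CPM, and the median nucleus held 0 UMIs in all 4 mice. Of these CNT nuclei, 98 of 117, 75 of 87, 167 of 196 and 94 of 122 carried no *Slc12a3* at all, while single nuclei carried up to 63, 66, 48 and 44 UMIs. Nuclei with at least 5 UMIs made up 9.40, 8.05, 5.10 and 13.9% of CNT nuclei.

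**Figure D2:**
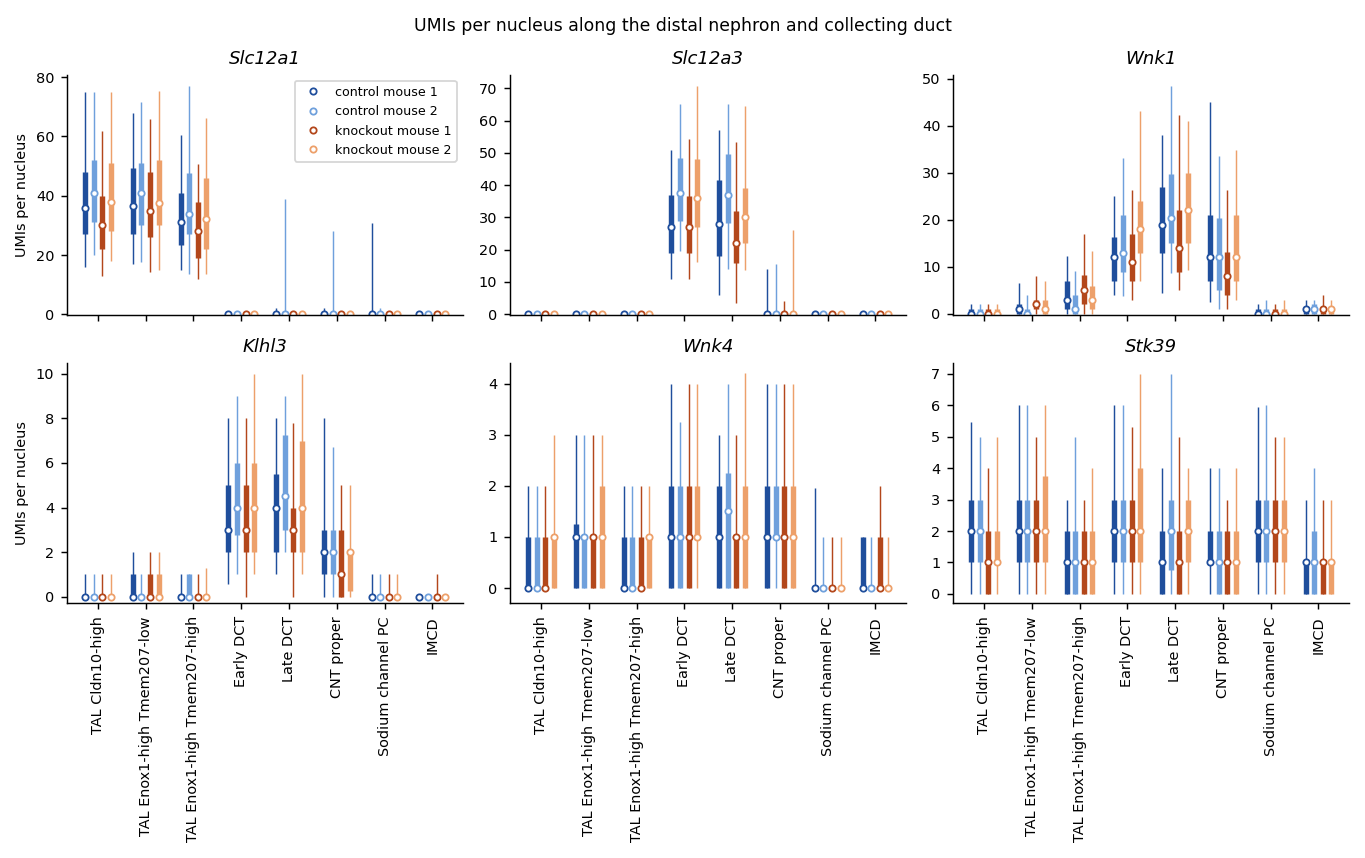
UMIs per nucleus of 6 genes in subclusters of the TAL, DCT, CNT and collecting duct, by mouse: the dot is the median, the thick line spans the quartiles and the thin line the 5th to 95th percentiles. The medians of *Slc12a1* in all TAL nuclei were 30 to 40 and those of *Slc12a3* in early DCT nuclei 27 to 37.5, while CNT nuclei had a median of 0 UMIs of *Slc12a3* in all 4 mice.

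NKCC2 and NCC transcripts were rarely found together. At a minimum of 5 UMIs of each, 1 of 3933 *Cldn10*-high TAL nuclei carried both (0.0254%, exact Clopper-Pearson 95% interval 0.000644 to 0.142%). In the *Enox1*-high clusters 1 of 705 *Tmem207*-low and 1 of 556 *Tmem207*-high nuclei did. Both were found in 9 of 767 early DCT nuclei (1.17%, exact interval 0.538 to 2.22%) and in 4 of 221 late DCT nuclei (1.81%, exact interval 0.495 to 4.57%). When nuclei called as doublets were left out, 1 of 730 early and 2 of 208 late DCT nuclei remained. No CNT nucleus of 522 carried both, for which the exact upper bound is 0.704%, while 45 carried *Slc12a3* alone and 13 *Slc12a1* alone. Without called doublets, 44 of 491 CNT nuclei carried *Slc12a3* alone and 3 *Slc12a1* alone. With so few nuclei positive for *Slc12a1*, the absence of nuclei with both does not show that the transcripts exclude each other. These intervals cover counting error only.

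**Figure D3:**
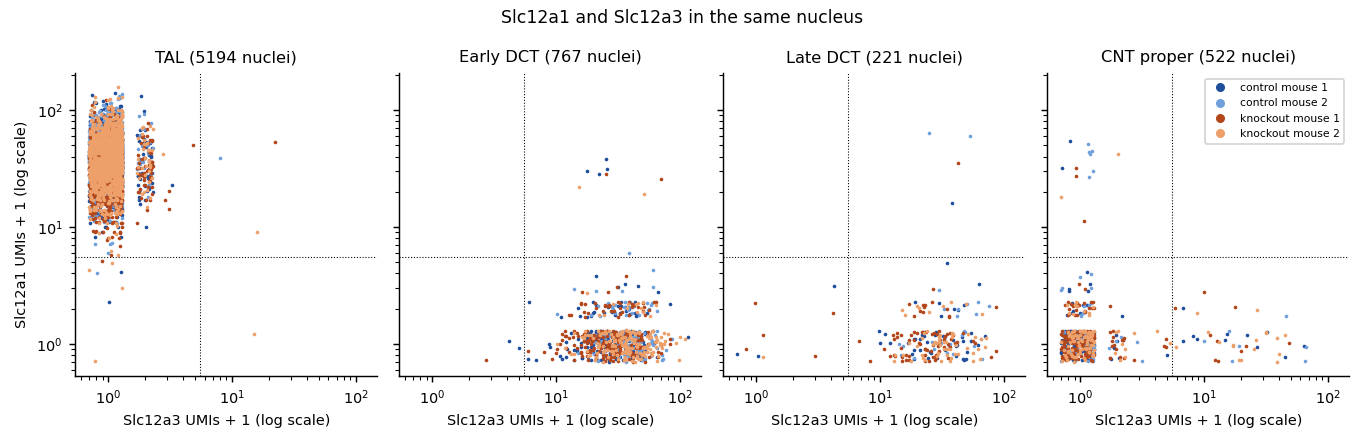
UMIs plus 1 of *Slc12a3* (x axis) and of *Slc12a1* (y axis), both on log scales, in single TAL, DCT and CNT nuclei, coloured by mouse, with a small random offset so that equal values can be seen. Nuclei lie along one axis or the other; the dotted lines set off nuclei with at least 5 UMIs of a gene, and 9 of 767 early DCT nuclei lie beyond both.

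*Wnk1*, the kinase at the head of the cascade, was highest in the DCT and the CNT. In the DCT it was 5978, 6628, 5647 and 8389 CPM, in late DCT nuclei 7954, 8043, 7247 and 9036 CPM, and in CNT nuclei of the second clustering 5670, 4309, 3780 and 5473 CPM. The 2 classes DCT and CNT overlapped and both lay above the others, which had means of 234 to 715 CPM. Late DCT nuclei exceeded early DCT nuclei in all 4 mice, and CNT nuclei of the second clustering lay below early DCT nuclei in all 4, by 1.39 times on average, with ranges that overlapped. In contrast to *Slc12a3*, *Wnk1* was not confined to a part of the CNT nuclei: the median was 12, 12, 8 and 12 UMIs per CNT nucleus, against 12, 13, 11 and 18 in the DCT. A short form of *Wnk1* without a kinase domain is transcribed in the kidney from a start site of its own, and 3' counts cannot tell it from the full-length form.

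Within the TAL, *Wnk1* divided the 3 clusters. It was 2036, 1199, 2699 and 1949 CPM in the *Tmem207*-high cluster. In the *Tmem207*-low cluster it was 768, 434, 1050 and 847 CPM, and in the *Cldn10*-high cluster 187, 201, 241 and 231 CPM. The ranges of the 3 clusters did not overlap, and the order was the same in each mouse. At 1000 UMIs per nucleus, 52.9 to 82.9% of *Tmem207*-high nuclei and 17.1 to 20.8% of *Cldn10*-high nuclei carried *Wnk1*. With called doublets left out the *Tmem207*-high cluster had 2053, 1199, 2675 and 1954 CPM. The sum of the DCT markers *Trpm6*, *Pvalb* and *Tmem52b* was also higher there, with 852, 590, 971 and 954 CPM. It was 23.7 to 110 CPM in the other clusters of the TAL and 3919 to 4484 CPM in the DCT. In the *Tmem207*-high cluster *Trpm6* and *Pvalb* had means of only 9.31 and 24.4 CPM, against 2682 and 620 CPM in the DCT. Most of the sum was thus *Tmem52b*, and the part of these markers in the level of *Wnk1* was not tested.

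*Wnk4*, whose product acts on NCC and NKCC2, had stepwise levels along the distal nephron. Its level was 635, 614, 523 and 680 CPM in the DCT. In the CNT it was 476, 522, 451 and 490 CPM, lower in each mouse. The TAL followed with 312, 338, 296 and 386 CPM and CD-ICs with 127, 125, 131 and 129 CPM, and none of these 4 classes overlapped the next. Because TAL nuclei outnumber the others, they nevertheless held 42.4% of the *Wnk4* UMIs and the DCT 12.3%. Within the TAL the order of clusters was not that of *Wnk1*: the *Tmem207*-low cluster had 388 to 487 CPM of *Wnk4* and the *Tmem207*-high cluster 220 to 320 CPM. A DCT nucleus held a median of 1 UMI of *Wnk4*.

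*Stk39* (SPAK) was high in both segments that use it. It was 1033, 1038, 974 and 1090 CPM in the DCT. The TAL had 906, 978, 740 and 826 CPM, lower than the DCT in all 4 mice but overlapping it by a little. Of all *Stk39* UMIs, 54.8% were in the TAL. The lowest level was in the PT, with 10.3 to 16.6 CPM, although the free RNA held 79.0 to 99.5 CPM.

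Within the classes, the clusters differed in *Stk39*. The *Tmem207*-low cluster of the TAL had 913 to 1059 CPM and the *Tmem207*-high cluster 467 to 714 CPM. In the collecting duct, principal cells that carry the sodium channel subunit *Scnn1b* had 746, 666, 674 and 720 CPM, whereas inner medullary collecting duct (IMCD) cells, recognised by the urea transporter *Slc14a2*, had 177 to 331 CPM. Type A intercalated cells had 740, 849, 421 and 597 CPM and type B cells 159, 203, 211 and 318 CPM. The types did not overlap.

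*Klhl3*, the adaptor that removes WNK kinases, followed the DCT and CNT. In the DCT it was 1762, 1975, 1617 and 1919 CPM, with medians of 3, 4, 3 and 4 UMIs per nucleus. In the CNT it was 1085, 951, 848 and 1044 CPM, and these 2 classes stood apart from each other and from the other 10. The TAL had 88.2 to 119 CPM and CD-ICs 87.0 to 127 CPM, and these overlapped. Type B intercalated cells, with 156, 180, 159 and 122 CPM, lay above type A cells, with 58.6, 49.9, 67.2 and 64.4 CPM, in each mouse.

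*Slc12a2*, on chromosome 18, encodes NKCC1, the relative of NKCC2 that secretory epithelia carry on the basolateral side. It was highest in the DMEP, an epithelium that lines the pelvis around the papilla, with 1084, 670, 1390 and 688 CPM and a median of 3, 3, 4 and 3 UMIs per nucleus. CD-PCs came next without overlap, at a mean of 275 ± 32.5 CPM (SD, n = 4). Here the IMCD and the sodium channel CD-PCs were at opposite ends, with 427, 407, 468 and 445 CPM in IMCD cells and 16.3, 45.2, 19.9 and 16.4 CPM in sodium channel CD-PCs, the reverse of *Stk39*. The thin limb had 92.8 to 122 CPM. Intercalated cells of type A, with 30.5 to 94.5 CPM, lay above type B cells, with 0 to 18.3 CPM.

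*Slc12a7* and *Slc12a4* encode the potassium chloride cotransporters KCC4 and KCC1. *Slc12a7* was even in the PT, with 85.3, 87.4, 85.3 and 82.9 CPM, and more variable in the DMEP, with 67.3, 153, 44.4 and 124 CPM, where 6 to 67 UMIs were counted per mouse. The PT, which held 71.7% of its UMIs, lay above the DCT (51.5 to 75.6 CPM) without overlap. The free RNA held 51.8 to 77.1 CPM, and it made up 3.87 to 16.0% of the UMIs of DCT nuclei and 21.2 to 43.5% of those of endothelial nuclei. The means of *Slc12a7* in the DCT, TAL and endothelial classes were 57.0 to 64.7 CPM. *Slc12a4* had 557 UMIs in all nuclei. Its mean was 40.8 CPM in interstitial cells, where 3, 10, 6 and 1 UMIs were counted, 29.2 CPM in endothelial cells and 1.70 CPM in the PT. The PT was lower than the TAL (12.8 to 18.1 CPM) and thin limb (17.7 to 23.7 CPM) in each mouse. Endothelial cells (19.9 to 44.1 CPM) lay above the DCT (3.17 to 13.7 CPM) without overlap, while each class other than the PT and immune cells overlapped the next in order.

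Across the 12 classes, *Klhl3* was the member most like *Slc12a3*, with a Pearson correlation of log2 levels of 0.91 over control means and 0.87 over knockout means. The pair *Wnk4* and *Klhl3* gave 0.94 and 0.86, and *Slc12a3* and *Wnk1* gave 0.83 and 0.84. *Slc12a1* was most like *Stk39* among the 9 genes in control mice (0.44, and 0.34 in knockout mice). Over all genes with at least 20 CPM in a class, those nearest to *Slc12a1* in control mice were *Arsj* (0.93) and *Pcsk6* (0.93), to *Slc12a3* *C78859* (0.95) and *Sall3* (0.94), to *Wnk1* *Tsc22d2* (0.96) and to *Slc12a2* *Krt19* (0.95). In knockout mice the same pairs gave 0.87, 0.85, 0.89, 0.89, 0.96 and 0.86. For *Slc12a7* the nearest gene, *Terb1*, had a correlation of 0.89 in control and -0.12 in knockout mice, so its likeness did not carry over. The 12 points of a correlation share libraries and depth, and these values are descriptions.

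The other genes of the pathway were a list of 19: further cotransporters, kinases, ligase subunits, phosphatases, *Sgk1*, *Nedd4l* and the mineralocorticoid receptor *Nr3c2*. *Ppp1r1a*, an inhibitor of protein phosphatase 1, was highest in the TAL and DCT, with means of 735 and 500 CPM. *Sgk1*, an aldosterone-regulated kinase, had means of 623 CPM in CD-PCs, 247 CPM in the CNT and 10.2 CPM in the TAL. *Nr3c2* was highest in the CNT (1587 CPM) and CD-ICs (1061 CPM), and *Nedd4l*, the ligase for sodium channels, in CD-ICs (2263 CPM). The ligase scaffold *Cul3* was even, from 149 to 217 CPM over the classes. The kinase *Wnk3* had 733 UMIs in all nuclei and *Wnk2* 586. No UMI of *Oxsr1*, the relative of *Stk39*, was counted in any library, and whether the annotation used could count it is not known.

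The design asks whether the collecting duct deletion of *Tfap2a* changed these genes. Sums per mouse and class were compared by the quasi-likelihood test of edgeR, and p-values were adjusted by Benjamini-Hochberg across the genes tested in each class. Of the pairs of a member and a class, 95 had the 10 UMIs needed over the 4 mice: *Slc12a1* and *Wnk1* in 12 classes, *Stk39* and *Slc12a4* in 11, *Slc12a2*, *Slc12a3*, *Wnk4* and *Klhl3* in 10 and *Slc12a7* in 9. None of the 95 passed an adjusted p of 0.05, where 0.00375% of all gene and class pairs did (5 of 133315). At an unadjusted p under 0.05 there were 9 of 95, beside 3.01% of all pairs: 4 were higher in the knockouts, beside 1.42%, and 5 lower, beside 1.59%. By DESeq2 1 of the 95 was called, *Slc12a3* in CD-PCs, beside 0.0255% of all pairs (34 of 133315). Both knockout mice lay on 1 side of both control mice in 29 of 95 pairs, near the 29.7% of all pairs. The median log2 change of the members was -0.04, beside 0.01 over all pairs. With 2 mice against 2, the smallest exact two-sided permutation p is 0.333, so the tests rest on the model across genes.

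At their main sites the members did not pass the test. *Slc12a1* in the TAL had a log2 change in knockout mice of -0.15 ± 0.40 (SE), and *Slc12a3* in the DCT one of -0.04 ± 0.38. The kinases and the adaptor in the DCT gave 0.16 ± 0.36 for *Wnk1*, -0.05 ± 0.29 for *Wnk4*, -0.00 ± 0.28 for *Stk39* and -0.08 ± 0.30 for *Klhl3*. *Slc12a2* gave 0.29 ± 0.37 in the DMEP and 0.12 ± 0.29 in the IMCD, which lies in the collecting duct. For *Slc12a7* in the PT the change was -0.05 ± 0.14. In simulated counts with the spread of the DCT, the test found 6.12% of genes changed 2-fold and 64.7% of those changed 4-fold. With that of the TAL it found 16.7 and 88.0%, with that of the PT 30.6 and 95.1%, with that of the DMEP 7.55 and 56.4% and with that of the IMCD 9.01 and 73.0%.

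**Figure D4:**
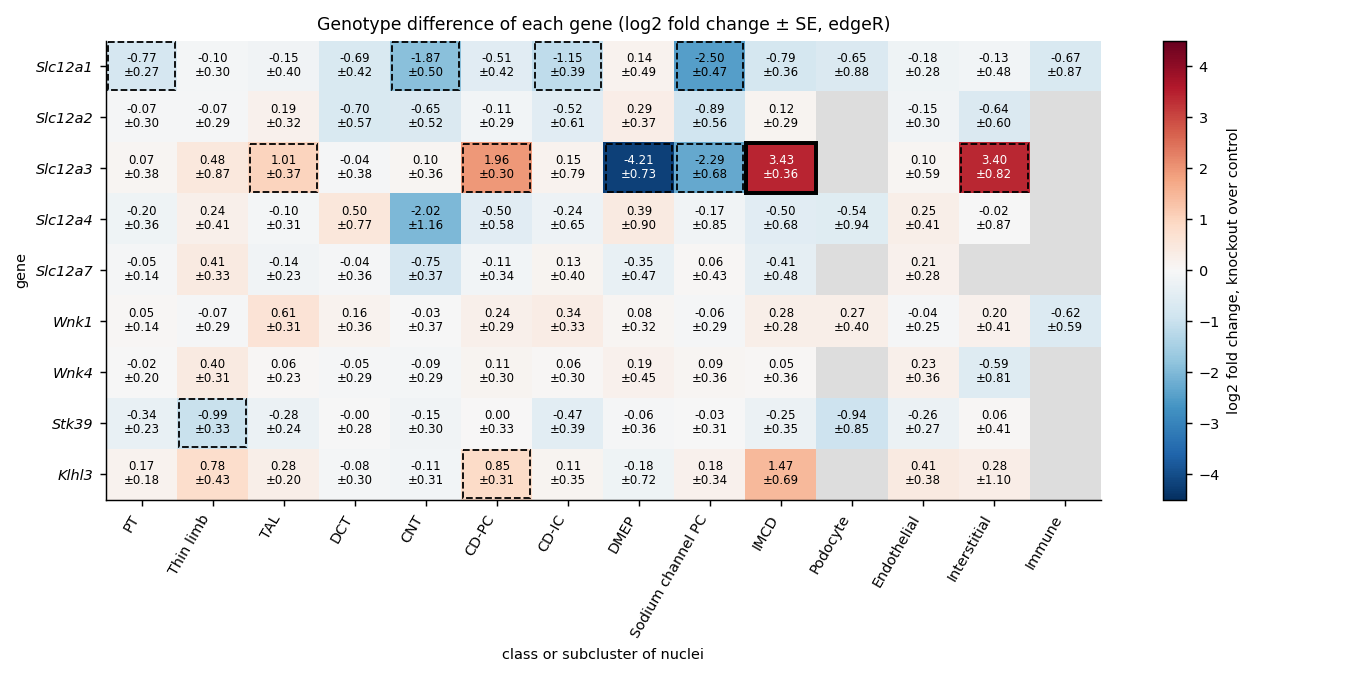
Log2 change of each gene in knockout against control mice, by class (colour, with the value and its SE in the cell). A solid box marks an adjusted p under 0.05 and a dashed box an unadjusted p under 0.05, and grey cells had under 10 UMIs. The main sites lie near 0, and most boxes are those of *Slc12a1* and *Slc12a3* outside their own segments. *Slc12a4* in the CNT (-2.02 ± 1.16) and *Klhl3* in the IMCD (1.47 ± 0.69) are large too, but have no box.

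The largest changes lay outside the main sites. Of the 9 pairs at an unadjusted p under 0.05, 3 were *Slc12a1* outside the TAL, 4 were *Slc12a3* outside the DCT and CNT, and the other two were *Klhl3* in CD-PCs and *Stk39* in the thin limb. *Slc12a1* had a log2 change of -0.77 ± 0.27 in the PT (adjusted p = 1.00). The sum of the TAL markers *Umod*, *Egf*, *Cldn10*, *Cldn16* and *Tmem207* in the PT was likewise lowest in knockout mouse 2, with 812, 946, 802 and 474 CPM. So was the share of free RNA, with 10.7, 5.82, 12.3 and 2.11%. In the PT that share was estimated from *Umod* and *Egf* alone, so it rests on counts that the marker sum also holds. *Cldn10* was the largest part of the marker sum in the PT, with a mean of 472 CPM and UMIs in 68.1% of nuclei. *Umod* and *Egf* had means of 217 and 66.1 CPM there. The sum thus cannot be read as RNA of the TAL alone. The part of the markers and of free RNA in the change was not tested. In this class the UMIs were spread widely, over 772, 387, 710 and 398 nuclei. In the CNT the change of *Slc12a1* was -1.87 ± 0.50 (adjusted p = 1.00) and in CD-ICs -1.15 ± 0.39 (adjusted p = 1.00). In CNT nuclei of control mice, 10 nuclei held 365 of 517 UMIs, and 6 of these 10 were called as doublets.

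In the collecting duct, too, few nuclei held most of these UMIs. In sodium channel CD-PCs, 340, 309, 31 and 51 UMIs of *Slc12a1* were counted (log2 change -2.50 ± 0.47, adjusted p = 0.112). None of the 9 members was called in this subcluster, beside 0.0181% of all genes, and 2 had an unadjusted p under 0.05 by edgeR, beside 3.61%. The 5 nuclei with most in each control mouse held 461 of the 649 control UMIs. Of these 10 nuclei 7 were called as doublets, and they carried a mean of 46.1 UMIs of the 5 TAL markers, against 1.93 in the other control nuclei of the class.

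*Slc12a3* in the IMCD gave the 1 adjusted p under 0.05 among the members, in a comparison of collecting duct subclusters. Of the 9 members 1 was called there, beside 0.00831% of the genes tested in the IMCD, and the same 1 had an unadjusted p under 0.05, beside 1.75%. Its UMIs were 11, 10, 52 and 57, a log2 change of 3.43 ± 0.36 (adjusted p = 0.0154). In control mice they were spread over 11 and 10 nuclei with 1 UMI each. In knockout mice they lay in 9 and 3 nuclei, of which 1 held 28 in mouse 1 and 1 held 55 in mouse 2. The 5 nuclei with most in knockout mouse 1 and the 3 in knockout mouse 2 carried a mean of 3.5 UMIs of the DCT markers *Trpm6*, *Pvalb* and *Tmem52b*, against 0.0483 in the other knockout IMCD nuclei, and 3 of these 8 were called as doublets. Without called doublets the log2 change was 2.75 ± 0.83 with an adjusted p of 1.00.

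*Slc12a3* was unevenly spread over nuclei in other classes outside its segment too. In CD-PCs as a whole, 32, 60, 119 and 77 UMIs were counted (1.96 ± 0.30, adjusted p = 0.277), with up to 6, 34, 28 and 55 in a nucleus. The CD-PC class also held 94 nuclei with little *Aqp2* (77.4 CPM), much *Umod* (15570 CPM) and a mitochondrial share 2.98 times the library median, of which 31, 4, 52 and 7 came from the 4 mice. A further 78 nuclei (14, 30, 30 and 4) had a mitochondrial share 2.4 times the median and 4431 CPM of *Calb1*. When CD-PC nuclei were clustered again, 225 nuclei, these among them, were set aside and 62 were given neither subcluster name. All of them stayed in the sums of the CD-PC class. Without nuclei that carry markers of another segment, the log2 change of *Slc12a3* in CD-PCs was 0.51 ± 0.67. The DMEP had 45, 46, 2 and 0 UMIs (-4.21 ± 0.73, adjusted p = 0.0693), and 1 nucleus held 38 of those of control mouse 1 and 1 held 44 of those of control mouse 2. In interstitial cells 33 of the 35 UMIs of knockout mouse 1 lay in 1 nucleus, beside 3, 3 and 2 UMIs in the other mice. The fitted change was thus positive in the IMCD and negative in the DMEP, where it did not pass. Fitted changes at such counts depend on the model's prior count and give no bound.

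**Figure D5:**
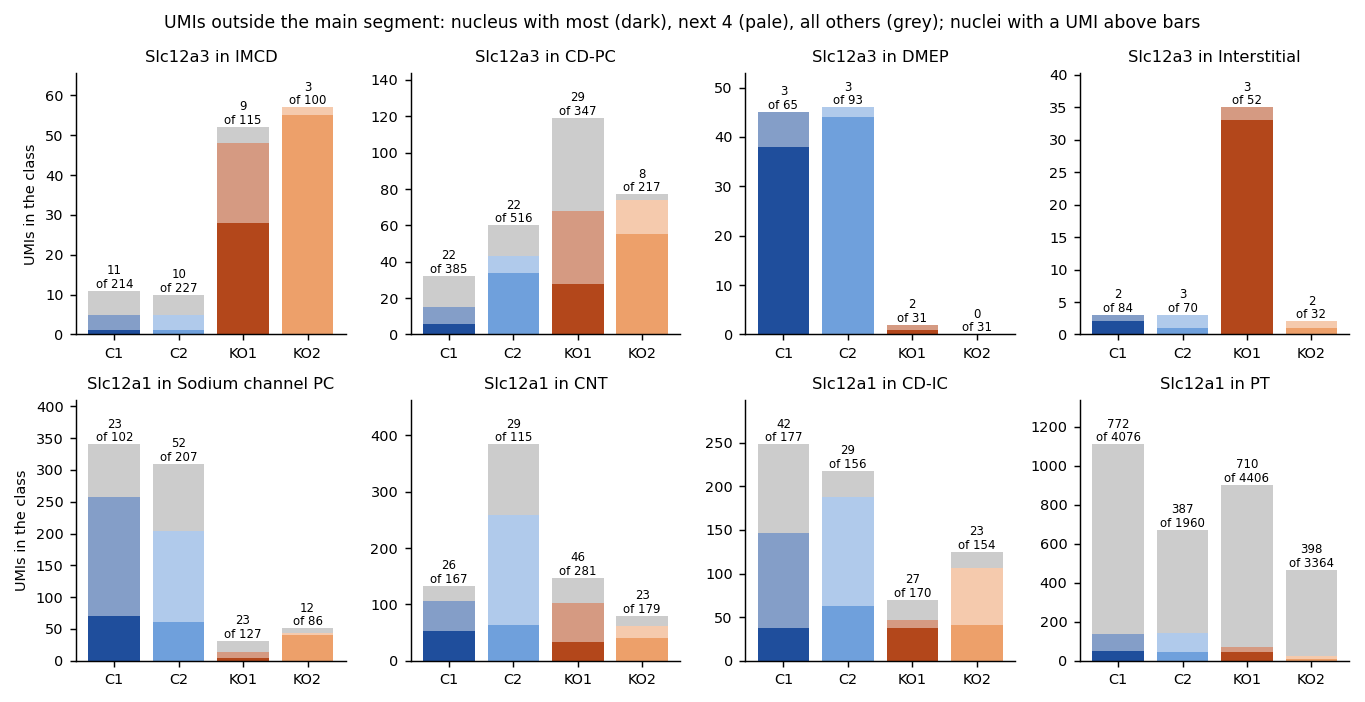
UMIs by nucleus for *Slc12a1* and *Slc12a3* in classes outside their own segments, for control mice (C1, C2) and knockout mice (KO1, KO2). The dark part of a bar is the nucleus with most UMIs, the pale part the next 4 and grey all others, and the text gives the nuclei with a UMI of all nuclei; in the IMCD, 1 nucleus of knockout mouse 2 held 55 of 57 UMIs of *Slc12a3*.

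The change of *Stk39* in the thin limb was spread over many nuclei. Its UMIs were 200, 495, 69 and 127, in 122, 250, 47 and 79 nuclei. As levels these were 286, 439, 156 and 215 CPM, lower in each knockout than in each control (log2 change -0.99 ± 0.33, adjusted p = 1.00). The class held 258, 450, 166 and 211 nuclei. *Klhl3* in CD-PCs was 26.6, 28.4, 57.6 and 40.8 CPM (0.85 ± 0.31, adjusted p = 1.00). Without nuclei that carry markers of another segment it was 0.28 ± 0.34, and without knockout mouse 1 it was 0.53 ± 0.42. The summed DCT markers in CD-PCs, which include the *Umod*-rich nuclei above, were 74.1, 46.0, 211 and 105 CPM. *Trpm6* and *Pvalb* had means of 16.2 and 17.8 CPM there. The nuclei left out for their markers had at least 2 UMIs of the DCT markers or at least 3 of the TAL markers. The part of the DCT markers alone was not tested.

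In the TAL, both knockout mice lay on 1 side of both control mice for 4 of 9 members, beside 29.7% of all gene and class pairs. *Slc12a3*, *Wnk1* and *Klhl3* (0.28 ± 0.20) were higher and *Stk39* (-0.28 ± 0.24) was lower, and none passed the test. For *Wnk1* the groups overlapped in the *Tmem207*-high cluster, where control mouse 1 lay above knockout mouse 2, but not in the other clusters of the TAL. *Slc12a3* was 19.0, 12.2, 41.1 and 22.6 CPM (1.01 ± 0.37, adjusted p = 1.00). The free RNA held 275, 216, 344 and 394 CPM of it and made up 12.9, 7.47, 16.3 and 4.36% of the UMIs of TAL nuclei. *Wnk1* was 499, 321, 753 and 511 CPM (0.61 ± 0.31, adjusted p = 1.00), and the DCT markers summed to 155, 88.4, 243 and 153 CPM. Knockout mouse 1 was highest and control mouse 2 lowest in the levels of *Slc12a3* and *Wnk1* and in the marker sum. In the TAL *Trpm6* and *Pvalb* had means of 4.14 and 12.5 CPM, so most of the marker sum was *Tmem52b*. The part of the single markers was not tested. Since both segments came from the same mice, the change in the TAL was also set against that in the DCT in 1 fit with the mouse as a term. The change in the TAL minus that in the DCT was 1.03 ± 0.39 for *Slc12a3* (adjusted p = 0.994) and 0.50 ± 0.32 for *Wnk1* (adjusted p = 0.994). Without 1 mouse it ranged from 0.38 (without knockout mouse 1) to 1.62 (without knockout mouse 2) for *Slc12a3*. For *Wnk1* it ranged from -0.10 to 1.08 with the same mice left out. No gene of 10708 was called in this test, and 450 (4.2%) had an unadjusted p under 0.05. Without the mouse as a term, 202 genes did.

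Of the 19 other pathway genes, 171 pairs with a class were tested. None passed an adjusted p of 0.05 by edgeR, beside 0.00375% of all gene and class pairs. An unadjusted p under 0.05 was found for 4 of the 171 pairs, beside 3.01% of all gene and class pairs. These 4 were *Sgk1* in the PT (1.72 ± 0.63), *Slc12a9* in CD-ICs (-2.11 ± 0.75), *Ppp3cb* in the DMEP (0.88 ± 0.39) and *Ppp1ca* in endothelial cells (0.61 ± 0.27). The median log2 change of the 171 pairs was 0.01. In sodium channel CD-PCs the change of *Sgk1* was -0.71 ± 0.35 (adjusted p = 1.00).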

How the data were processed

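Nuclei of 4 mouse kidneys were sequenced with the 10x 3' kit. The authors deposited unfiltered UMI counts per gene and barcode (Cell Ranger 3.0.2 and mm10 in the submitters' processing notes, which also name Seurat 3.2.1.35). The 10000 largest barcodes of each library were taken, and a nucleus was kept if it had more than 500 genes but fewer than 4000, with mitochondrial UMIs below 5%. They were integrated and clustered with Seurat 5.3.0 (2000 variable genes, 30 dimensions, resolution 0.5) and named from marker lists. Any of the 9 members and the 19 other pathway genes were taken out of the variable genes first. Doublets were called against simulated ones at 0.8% per 1000 nuclei; clusters of damaged (859) and mixed (403) nuclei were left out. UMIs were summed by mouse and class and tested with edgeR 4.0.16 (TMM, quasi-likelihood, at least 10 UMIs, Benjamini-Hochberg) in R 4.3.3, with DESeq2 1.42.0 as an alternative, and tested on simulated data. The SE of an edgeR log2 change was its size divided by the square root of the F statistic of the test. It is not a direct measure of the spread between mice. Free RNA was taken from barcodes under 100 UMIs. Likeness used log2(CPM + 5). Named were all members, and pairs with an unadjusted p under 0.05. The members and lists were chosen with earlier results of these data known. Controls were Cre-negative littermates of knockout mice; kinship within a group of 2 is not given in the sources used here. 3' counts cannot tell splice forms apart.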

Additional observations from a re-analysis of the deposited data

Results flagged for a closer look

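The change of *Slc12a3* between knockout and control mice went in opposite directions in different classes and subclusters. The gene was flagged for this, and the sets below were picked by rule. Each had an unadjusted p under 0.05 by edgeR and both knockout mice on 1 side of both control mice. These traits are therefore no result about the gene, and 29.7% of all gene and class pairs had the second. The log2 change was 1.01 in the TAL (adjusted p = 1.00), 1.96 in CD-PCs (0.277), 3.4 in interstitial cells (0.993) and 3.43 in the IMCD (0.0154). It was -4.21 in the DMEP (0.0693) and -2.29 in sodium channel CD-PCs (0.984), so 1 of the 6 passed. The IMCD and sodium channel CD-PCs are subclusters of the CD-PC class, so their nuclei were counted in that class too. The difference between these sets was not tested. In sodium channel CD-PCs the UMIs were 5, 45, 4 and 2, of which 34 in control mouse 2 lay in 1 nucleus.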

How the results depend on the processing

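Over the 12 classes, the 0 member pairs called became 1 with DESeq2, 1 without TMM, 1 with free RNA subtracted, 4 without the filter on low counts and 1 to 6 without 1 mouse. The 5 genes called in all became 34, 9, 2, 237 and 109 to 205 under the same settings, 2 without nuclei that carry markers of another segment and 11 under 1% mitochondrial UMIs. In the CD-PC subclusters, the 1 member call became 2 without the filter, 1 to 2 without 1 mouse, and 0 without called doublets or without nuclei with markers of another segment. There the 3 genes called became 21, 5 to 69, 1 and 0, and 22 with free RNA subtracted. For the TAL against the DCT, 0 calls became 5 without doublets and 0 to 14 without 1 mouse (14 without knockout mouse 1). The cause was not tested. No label ties mice of the same number; with 2 pairs, their deviations correlated at 0.143 to 0.503 over the classes and subclusters. With the replicate number as a block, 367 genes were called over classes, and 6 member pairs (*Stk39* in the thin limb, *Slc12a1* in the CNT and CD-ICs, *Slc12a3* in CD-PCs, the DMEP and interstitial cells). In the subclusters 60 genes and 2 member pairs were called (*Slc12a1* in sodium channel CD-PCs, *Slc12a3* in the IMCD).

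Of 379 values for 27 named pairs, 333 kept direction and side of the threshold, 25 passed it, 1 no longer did and 20 turned sign. *Slc12a3* turned to 0.0060 in sodium channel CD-PCs and -0.24 in the IMCD without nuclei of other segment markers. Under 1% mitochondrial UMIs, the DCT gave 0.073 for *Slc12a3*, 0.11 for *Wnk4* and 0.032 for *Stk39*. Without 1 mouse, the DCT ranged from -0.27 to 0.14 for *Slc12a3*, -0.22 to 0.41 for *Wnk1*, -0.32 to 0.13 for *Wnk4*, -0.15 to 0.077 for *Stk39* and -0.27 to 0.041 for *Klhl3*. The CNT ranged from -0.27 to 0.41 for *Slc12a3*, -0.29 to 0.22 for *Wnk1* and -0.28 to 0.068 for *Klhl3*, *Slc12a2* in the DMEP from -0.28 to 0.71 and *Slc12a4* in endothelial cells from -0.32 to 0.75. These fits leave a group with 1 mouse, assumed to vary like the other group.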
